A study of Homo sapiens with 8 samples.

Results

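Promoter regions whose open-chromatin peak lost rank after stem cell factor (SCF) were examined in HUDEP-2 cells, an immortalized human erythroid progenitor line derived from umbilical cord blood. Of 13250 promoter regions that carried a peak in all 4 control libraries, 298 (2.25%) met the rule. The members were selected on measured values. Peaks of the 4 lists were merged into regions wherever they shared at least 1 bp, and within a list the peaks were ordered by fold enrichment and numbered as percentiles, up to 100 for the strongest. A region was kept if its summit lay within 1 kb of an annotated transcript start and the lower of its PBS ranks was at least 10 points above the higher of its SCF ranks. That distance in points is called the gap. The ranks and everything else read from the PBS to SCF contrast therefore describe the choice and cannot support it.

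Accessibility was measured by ATAC-seq, in which the Tn5 transposase inserts adapters into open chromatin. All cells carried the control guide RNA (sgControl), spent 5 h without growth factors and then received 50 ng/mL SCF or phosphate-buffered saline (PBS) for 1 h. Each library came from 50000 cells, with 2 libraries per treatment that the methods call biological duplicates. All cultures had been expanded with SCF, EPO, dexamethasone and doxycycline before the starvation, and HUDEP-2 is a single line. The sgEGR1 samples were not analysed here.

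SCF is the ligand of Kit, a receptor tyrosine kinase that drives survival and proliferation of erythroid precursors through the Ras, PI3K and STAT5 pathways. A promoter is the DNA around a transcription start where general factors and RNA polymerase II assemble, and active promoters are kept free of nucleosomes, which makes them the most regular sites of ATAC-seq signal. Many human promoters are CpG islands, stretches rich in GC and in CpG dinucleotides that are usually unmethylated and open in most cell types. Sequence-specific factors such as SP/KLF, NFY, ETS and NRF1 proteins bind there.

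The sequences of 5 members are shown to make visible what kind of DNA some of the largest losses fell on. They are 5 of the 6 members of largest gap whose window, 150 bp around the summit, touched no annotated exon, and were read from the plus strand of GRCh37 (hg19). Capitals mark matches to 1 of 13 short words searched on both strands: TGANTCA for AP-1, GCGTGGG for EGR, AGATAA or TGATAA for GATA, TGACGTCA for the cAMP response element (CRE), CCGGAA for ETS, GGGCGG for SP/KLF, CCAAT for NFY, CACGTG for the E-box, AAGATGG for YY1, TATAAA for the TATA box, and the published words of the serum response element (SRE), NRF1 and ZBTB33. A match is a string of letters and not a shown binding site. The windows are chr14:106873623-106873772 near the immunoglobulin pseudogene IGHVIII-38-1, chr1:17764291-17764440 in an intron of RCC2, chr12:97379507-97379656 in an intron of the lncRNA gene ENSG00000258131, chr11:111807890-111808039 in an intron of DIXDC1 and chr2:178013605-178013754 in an intron of the lncRNA gene ENSG00000236501.
IGHVIII-38-1: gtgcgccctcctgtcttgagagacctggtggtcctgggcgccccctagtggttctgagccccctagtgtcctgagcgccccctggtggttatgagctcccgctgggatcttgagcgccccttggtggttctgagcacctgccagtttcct
RCC2: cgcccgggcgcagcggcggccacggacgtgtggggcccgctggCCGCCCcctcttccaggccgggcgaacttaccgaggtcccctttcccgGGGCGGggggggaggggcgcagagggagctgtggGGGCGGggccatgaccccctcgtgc
ENSG00000258131: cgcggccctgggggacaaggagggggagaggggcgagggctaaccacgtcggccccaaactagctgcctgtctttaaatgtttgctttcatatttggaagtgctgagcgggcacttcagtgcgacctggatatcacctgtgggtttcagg
DIXDC1: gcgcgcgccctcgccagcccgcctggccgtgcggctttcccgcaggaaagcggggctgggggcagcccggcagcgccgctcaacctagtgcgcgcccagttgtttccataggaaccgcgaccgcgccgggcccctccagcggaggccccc
ENSG00000236501: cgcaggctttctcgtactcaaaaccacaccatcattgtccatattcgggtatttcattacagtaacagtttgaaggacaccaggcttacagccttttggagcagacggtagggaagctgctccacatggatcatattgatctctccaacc

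The GC content of these 5 windows ran from 46.7% to 79.3%. The RCC2 window held several copies of the SP/KLF word, and the other 4 windows held none of the 13 words. These counts describe the 5 windows shown and no wider set.

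The 4 libraries differed in depth and in the number of peaks. With PBS replicate 1 as the unit, depth recovered from the lists was 1.42 for the other PBS library and 0.883 and 0.843 for SCF replicates 1 and 2, and the lists held between 29269 and 33616 peaks. Read totals are unknown. Depth was thus lower in both SCF libraries than in both PBS libraries, so depth and treatment cannot be told apart here. Replicate numbers within the peaks' names differ from those of the labels, and the labels were followed. Of 12 erythroid markers, 9 had a promoter peak in all 4 lists, GATA1, KLF1, EPOR, KIT and HBB among them, ALAS2 had one in 1 list, and the fetal globin genes HBG1 and HBG2 had none. Promoter peaks in all 4 lists were also present at 4 of 5 myeloid markers, 1 of 4 megakaryocyte markers and 1 of 5 lymphoid markers. No marker gene was at a member.

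The median rank of the members was 64.2 and 65.3 with PBS (replicates 1 and 2) and 42.1 and 43.8 with SCF. The same medians over all 13250 promoter regions were 72.6, 75.1, 71.6 and 73.4. Members thus stood somewhat below the typical promoter with PBS and well below it with SCF. The rule requires the fall from PBS to SCF, but no position relative to other promoters. The median fold enrichment at the summit was 8.93 and 8.63 with PBS and 6.56 and 6.23 with SCF, against 9.89 to 10.3 for all promoter regions. The median gap was 13.2 points and the largest 38.0, with 96 members at 15 points or more and 41 at 20 or more. Leaving out a library loosens the rule, and it then kept 1480 regions without SCF replicate 2, 1201 without PBS replicate 1, 971 without SCF replicate 1 and 767 without PBS replicate 2. The median change from PBS to SCF, taken between the treatment means, was −19.99 points for the members and −0.758 for all promoter regions.

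**Figure D1:**
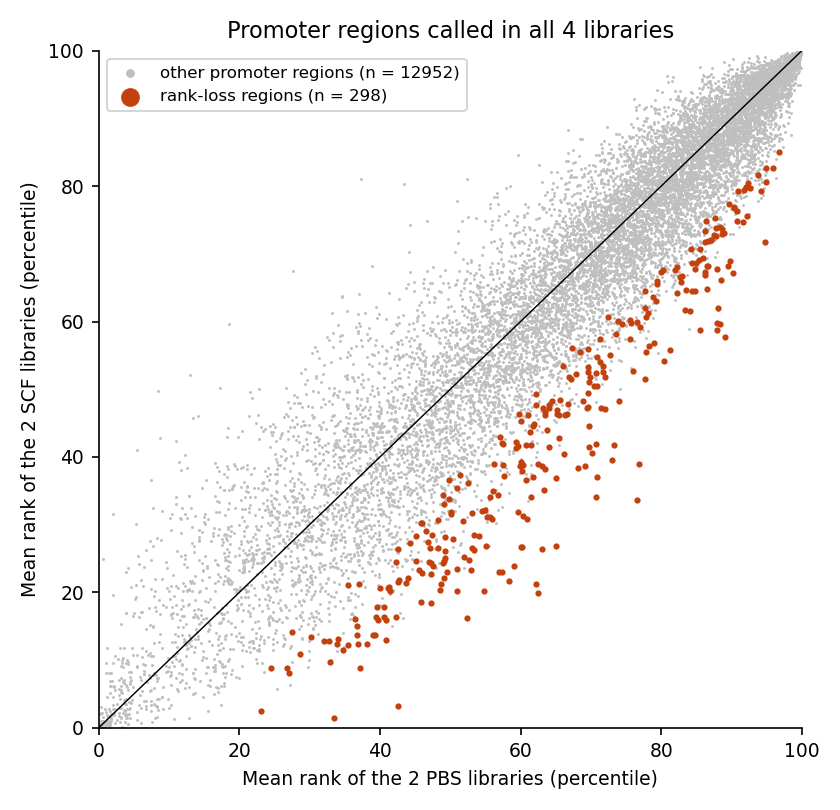
Mean percentile rank of each promoter region in the 2 PBS libraries (x axis) and in the 2 SCF libraries (y axis), with 298 rank-loss regions in orange, the other 12952 regions in grey and the line of equal rank in black. The members form the lower edge of a cloud that spreads to both sides of the line and is widest at middle ranks.

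Members came mostly from the middle of the ranking. The median of their mean rank over the 4 libraries was 53.5, against 73.3 for all promoter regions. Of the promoter regions with a mean rank of 25 to 50, 5.12% were members, whereas 0.835% of those above 75 were. The same concentration appeared when the libraries were paired otherwise, with median mean ranks of 40.6 to 48.3.

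The numbers of fragments behind the members were small. At the summit, the median pileup (fragments covering the summit base) was 31.5 and 40.5 in PBS replicates 1 and 2 and 21 in each SCF library, against 55, 74, 52 and 49 for all promoter regions. Pileup was lower in both SCF libraries than in both PBS libraries at 297 of 298 members. No share over all promoter regions is given for this, and the SCF libraries were also the shallower ones. The rule ranks fold enrichment, which is computed from pileup, so the count is not a result about the members. Divided by the lowest background of each library, pileup was lower in both SCF libraries at 205 members (68.8%), against a background of 7.46% of all promoter regions. The local background of the caller, in the same unit, was higher with SCF at 63.8% of members and at 72.5% of all promoter regions.

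Peaks of members were not narrower with SCF more often than elsewhere. The median width of the peak itself was 706 and 781 bp with PBS and 714.5 and 694 bp with SCF for members, and 861, 919, 833 and 838 bp for all promoter regions. The peak was narrower in both SCF libraries than in both PBS libraries at 23.2% of members, against 28.2% of all promoter regions.

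The nearest start belonged to a protein-coding gene in 229 members and to a lncRNA gene in 54. The 298 members had 298 distinct nearest genes. By the rule for naming, the 25 members of largest gap nearest a protein-coding gene are described here, with gaps from 20.5 to 38.0 points. Their pileups ran from 12 to 98 fragments in the PBS libraries and from 5 to 43 in the SCF libraries. They are ordered by what their genes encode.

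Several lay at genes of signalling proteins. The region at PTPRJ, which encodes the receptor tyrosine phosphatase CD148, is chr11:48002079-48002944. It ranked 58.5 and 66.5 with PBS and 28.1 and 11.8 with SCF, with pileups of 20, 27, 13 and 9 fragments. The 2 SCF ranks differed by more than the 2 PBS ranks.

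The region at STYK1, a gene of the protein kinase family, ranked 63.2 and 61.0 with PBS and 9.79 and 32.6 with SCF, from 17, 19, 7 and 9 fragments. SGK3 encodes a kinase of the AGC family that acts downstream of PI3K. Its region ranked 61.0 and 55.7 with PBS and 13.4 and 30.1 with SCF. In both regions SCF replicate 1 gave the lowest rank.

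DUSP14 encodes a dual-specificity phosphatase that can act on MAP kinases, and it was not on the list of MAPK feedback inhibitors used below. Its region, chr17:35848936-35850631, ranked 64.2 and 57.6 with PBS and 33.4 and 28.3 with SCF, from 45, 52, 27 and 22 fragments. At 1696 bp it was the widest of the 25. The region at CD70, which encodes the ligand of CD27, ranked 50.1, 48.5, 27.6 and 22.5 in PBS replicates 1 and 2 and SCF replicates 1 and 2.

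Others lay at genes of membrane traffic. The largest gap of all, 38.0 points, was at TBC1D23, which encodes an adaptor of the trans-Golgi network. The region ranked 42.1 and 43.1 with PBS and 4.13 and 2.46 with SCF. These ranks rested on 12, 14, 6 and 5 fragments, the fewest among the 25. The 95% exact Poisson interval was 6.20 to 21.0 fragments in PBS replicate 1 and 1.62 to 11.7 in SCF replicate 2, for counting error only. When ranks were taken among promoter regions alone, the gap here was 13.6 points. That at BUB1, described next to other genes of mitosis, was then 35.1, so the order of the gaps depended on the ranking. The TBC1D23 summit lay 932 bp downstream of the nearest start. The region stayed a member in 5 of 11 alternatives with all 4 libraries and the 10-point rule. It was lost when the 4 peaks had to share at least 50% of the narrowest peak, as were the regions at RCC2, DIXDC1 and SMOX.

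The region at EXOC7, which encodes a subunit of the exocyst, ranked 61.4 and 59.2 with PBS and 28.6 and 33.9 with SCF, with 28 fragments in each PBS library and 14 in each SCF library. The region at STX1A, which encodes a syntaxin of synaptic vesicle fusion, ranked 38.2, 40.4, 13.6 and 13.8 in the same order. In both, the libraries of a treatment differed by less than 6 points. RHBDF1 encodes an inactive rhomboid protein, and its region ranked 39.97, 33.9, 13.5 and 11.2.

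Genes of mitosis and the cytoskeleton were also represented. BUB1 encodes a kinase of the spindle assembly checkpoint. Its region, chr2:111435315-111436965, had its summit 2 bp upstream of the start and ranked 87.4 and 88.8 with PBS and 64.4 and 59.7 with SCF, from 59, 98, 43 and 34 fragments. It was among the highest-ranked of the 25 with PBS and did not stand in the lower part of the ranking with SCF.

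The region nearest an ACTB start (chr7:5602399-5603575), for the cytoskeletal actin, ranked 48.2, 50.8, 19.5 and 26.6 in PBS replicates 1 and 2 and SCF replicates 1 and 2. Another ACTB promoter region changed by −7.75 points and was no member. RCC2 encodes a regulator of chromosome condensation and cytokinesis. Its region, chr1:17764198-17765285, ranked 38.7 and 28.3 with PBS and 1.79 and 1.19 with SCF, although it held 32, 35, 17 and 15 fragments. The SCF ranks were at the bottom of their lists. With ranks among promoter regions alone the gap fell from 26.5 to 6.69 points, and the region was then no member. PARD6G, a gene of cell polarity, ranked 80.5 and 61.3 with PBS and 37.3 and 36.8 with SCF.

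The remaining named regions lay at genes with other roles. The region at GPS2, which encodes a subunit of the NCoR corepressor complex, ranked 64.8, 66.1, 42.2 and 43.4 in PBS replicates 1 and 2 and SCF replicates 1 and 2. Its pileups were 46, 64, 42 and 42, and when peaks were ranked by pileup its gap turned to −1.97 points. UBE2H encodes a ubiquitin-conjugating enzyme and ranked 79.2, 76.5, 54.9 and 56.0 in the same order. MRPL23 is covered with its family below. The others were DIXDC1, a gene of Wnt signalling, SMOX, which encodes spermine oxidase, ABHD17C, which encodes a depalmitoylase, ZC3H12B, SERINC2, SPACA6, CCDC68, MRO and MSMP, with gaps of 20.6 to 26.4 points. The ZC3H12B region ranked 91.3 and 85.3 with PBS and 64.2 and 55.2 with SCF, so that it and the BUB1 region were the only ones of the 25 above 85 in both PBS libraries.

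**Figure D2:**
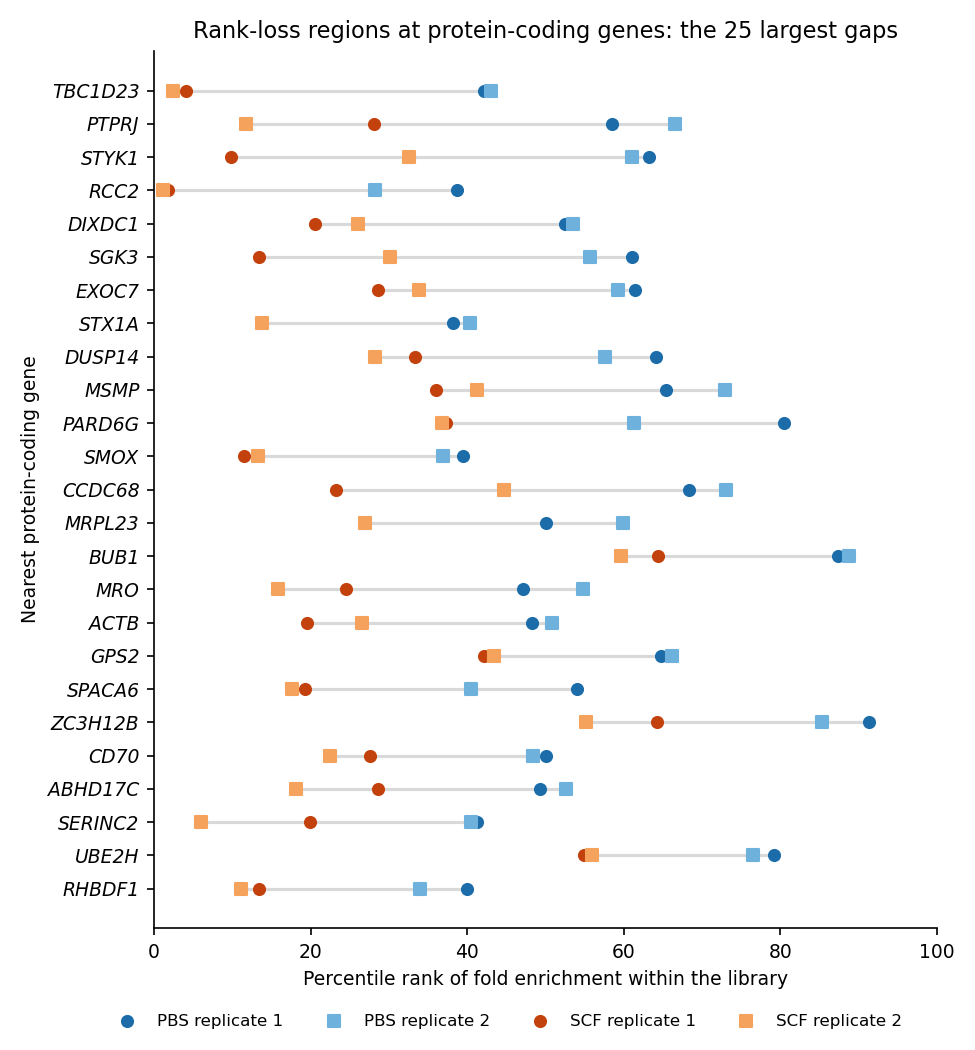
Percentile rank within each library (x axis) of the 25 named regions (rows), with PBS libraries in blue, SCF libraries in orange, replicate 1 as circles and replicate 2 as squares. Every row shows both PBS points to the right of both SCF points, by at least 20.5 points, which the choice of regions fixes.

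Other promoter regions of the same genes fell less. Of the 25 named genes, 12 had another promoter region called in all 4 lists, and in all 12 that region fell by less than the member or rose. The other region changed by −3.54 points at TBC1D23, −0.710 at DIXDC1, 0.735 at SGK3 and 12.6 at RHBDF1. Over all members, 65 had another promoter region of the nearest gene, and in 35 of these (53.8%) the other region ranked higher with PBS. The median change of these other regions was −1.95 points. Since members were chosen for a fall, regions that were not chosen will tend to fall less.

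Regions on either side of the threshold had similar values. The smallest gaps inside were 10.04 at CXCR4, which encodes the chemokine receptor for CXCL12, 10.05 at TBRG1 and 10.06 at STOX1. Just outside stood CSRP2 with 9.99, CLK4 with 9.98 and DNTTIP2 with 9.95. CXCR4 ranked 39.4 and 50.9 with PBS and 27.2 and 29.3 with SCF, from 18, 31, 14 and 14 fragments. CLK4 ranked 80.5 and 80.5 with PBS and 70.5 and 69.1 with SCF.

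No gene on the lists for the Kit response was at a member. Among 12031 protein-coding genes with a promoter region, 280 (2.33%) had a start within 1 kb of a member's summit. None of 39 genes of Kit receptor signalling, 14 MAPK feedback inhibitors (chosen DUSP, SPRY and SPRED genes and ERRFI1, without DUSP14), 36 immediate early genes (FOS, JUN, EGR and the like) or 24 erythroid factors did. The upper 95% Wilson limits on these shares, 8.97%, 21.5%, 9.64% and 13.8%, all exceed the 2.33% of all genes. The lists are therefore too short for these zeros to show a shortage. The gene of SCF itself, KITLG, was on none of the lists and was at a member. That region, chr12:88973473-88974531, has its summit 8 bp from a start of the lncRNA gene ENSG00000281333 and ranked 50.8 and 55.9 with PBS and 24.5 and 32.6 with SCF, from 15, 18, 9 and 9 fragments. It was named after its values were seen. No gene of heme and iron metabolism (29), the G1 phase (30), DNA replication (40), oxidative phosphorylation (90), the proteasome (44), histones (56) or tRNA synthetases (33) was at a member either.

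Ribosomal protein genes were present. Members lay at 4 of 83 cytosolic ribosomal protein genes (4.82%, 95% Wilson interval 1.89 to 11.7%), namely RPL7A, RPL12, RPL17 and RPS21, and at 3 of 76 mitochondrial ones (3.95%, 1.35 to 11.0%), namely MRPL23, MRPL20 and MRPL34. Both intervals include the share of all genes. The RPL7A region, chr9:136214169-136215551, is shared with MED22, a Mediator subunit gene that starts in the opposite direction, and ranked 76.5 and 80.0 with PBS and 51.7 and 61.1 with SCF.

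The RPL12 region ranked 61.4, 57.2, 43.1 and 41.4 and the RPL17 region 68.9, 73.7, 53.1 and 54.8 in PBS replicates 1 and 2 and SCF replicates 1 and 2. MRPL23 fell furthest of the 7, from 50.1 and 59.97 with PBS to 26.9 and 27.0 with SCF, on pileups of 53, 77, 34 and 30 fragments. Each of these regions stayed well inside the called range in all 4 libraries.

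Other lists held few. Translation initiation had 2 of 50, EIF2AK2 (the kinase PKR) and EIF2B5, an eIF2B subunit. EIF2AK2 ranked 61.8, 64.5, 47.4 and 47.2 in PBS replicates 1 and 2 and SCF replicates 1 and 2. Splicing factors had 2 of 76 (LSM10 and SNRPB2), chromatin modifiers 2 of 85, namely the histone acetyltransferase gene KAT6A and the methyltransferase gene KMT2C, Mediator 1 of 32 (MED22) and the BCL2 family 1 of 13. The last was BAD, a pro-apoptotic gene, whose region ranked 65.9 and 67.8 with PBS and 54.9 and 48.9 with SCF.

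Zinc-finger genes named ZNF were the only list whose interval lay below the share of all genes, with 3 of 439 (0.683%, 0.233 to 1.99%). These were ZNF578, ZNF300 and ZNF554. ZNF554 ranked 91.6, 93.1, 79.4 and 81.4 in PBS replicates 1 and 2 and SCF replicates 1 and 2, so a well-ranked promoter remained well ranked. In all, 19 lists were compared. Over all of them, 1.40% of the listed genes with a promoter region (0.888 to 2.20%) were at members, below the 2.33% of all protein-coding genes. With ranks among promoter regions alone the order turned, at 3.66% of listed and 3.29% of all genes. The pooled 1.40% was weighted by the ZNF list, the longest with 439 genes. The interval of each other list included the 2.33% of all genes, so the pooled share does not describe the lists one by one.

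GC content did not set the members apart. Within 100 bp of the summit, the median GC content of members was 67.7% (quartiles 59.2 and 74.6%) and that of all promoter regions 67.2% (59.7 and 73.6%). The difference of the medians was 0.498 percentage points, with a 95% binomial interval for the members' median of −0.995 to 1.99. Over 5 classes of GC content of similar size, from lowest to highest, 2.35%, 1.83%, 2.41%, 1.85% and 2.84% of promoter regions were members, with no steady order. Across all 13250 promoter regions, which share the 4 libraries, the Spearman correlation of the SCF minus PBS rank difference with GC content was −0.0519.

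Members were slightly poorer in CpG. Their median ratio of observed to expected CpG was 0.783, against 0.833, and 71.8% (66.5 to 76.6%) met a CpG-island-like criterion of at least 50% GC and a ratio of at least 0.6, against 77.3% of all promoter regions. Among regions of similar mean rank the difference was small or turned. At mean ranks of 25 to 50 the share was 61.9% in members and 60.0% in all, and at 50 to 75 it was 76.5% and 77.2%. Below 25 the shares were 55.6% of 18 members and 51.9% of all, and above 75 they were 88.5% and 86.9%.

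Members were narrower than the typical promoter region. The merged regions had a median width of 929.5 bp (quartiles 713.5 and 1182 bp), against 1024 bp (824 and 1266 bp), a difference of −94.5 bp with an interval of −147 to −53 bp. Over 5 width classes of equal size, from narrowest to widest, the share of members went from 3.62% to 1.58%. Narrow regions also rank lower. At mean ranks below 25 the 18 members were wider, with a median of 770 bp against 707 bp in all. At mean ranks of 25 to 50 the median widths were 811 bp in members and 841 bp in all, at 50 to 75 they were 961 and 1091 bp, and above 75 they were 1003.5 and 1056 bp.

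The genes' arrangement was also compared. A protein-coding start lay within 1 kb in 83.6% of members (78.9 to 87.3%) and in 89.4% of all promoter regions, and divergent pairs of protein-coding genes made up 7.05% (4.66 to 10.5%) and 10.3%. Among regions of similar mean rank the divergent share went both ways. Below 25 it was 11.1% of 18 members and 3.89% of all, and at 25 to 50 it was 1.77% and 4.66%. At 50 to 75 it was 11.3% and 8.33%, and above 75 it was 7.69% and 14.4%. The protein-coding share in these bands was 66.7% and 84.2%, 78.8% and 83.9%, 87.8% in both, and 90.4% and 93.0%. The summit was upstream of the nearest start in 45.6% of members (40.1 to 51.3%) and 50.9% of all promoter regions, and in an annotated exon in 50.0% and 51.9%, and its median distance from the start was 88.5 bp, against 80 bp overall.

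The 4 libraries can be paired in other ways, and the same rule was applied to each. Regions in which both SCF ranks exceeded both PBS ranks by 10 points numbered 157 (1.18%). Regions in which both replicates numbered 2 exceeded both numbered 1 were more numerous than the members, 388 (2.93%), and the reverse gave 73 (0.551%). PBS replicate 1 and SCF replicate 2 over the other two gave 165 (1.25%), and PBS replicate 2 and SCF replicate 1 over the other two gave 182 (1.37%). The count of 298 was thus above 4 and below 1 of the other 5 counts, and a pairing that mixes treatments gave the highest. This order depended on the peaks used. With the lists cut to equal length, PBS over SCF gave 308 regions, replicates 2 over 1 gave 145 and replicates 1 over 2 gave 266, and after removing peaks of −log10 q under 5 the counts were 524, 288 and 138. With peaks ranked by pileup they were 107, 242 and 13. SCF over PBS gave 227 regions with lists of equal length, 166 with the −log10 q limit and 52 with ranks by pileup. With ranks among promoter regions alone, PBS over SCF gave 386 and SCF over PBS 339. The excess of losses over gains therefore also depended on the setting. Under the main rule the median gap was 12.6 to 13.8 points in the other 5 sets, and 13.2 in the members.

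Taken whole, these sets had a smaller median width than the members, and 4 of the 5 had a smaller share of CpG-island-like regions. The members' GC content was within the range of the sets. Members also ranked higher, with a median mean rank of 53.5 against 40.6 to 48.3 in the sets. Median GC content in the 5 sets was 63.7 to 68.4%, which contains the members' 67.7%. Median width was 737 to 888 bp, below the members' 929.5 bp in every set. The CpG-island-like share was 49.1 to 58.2% in 4 sets and 72.0% in the set of PBS replicate 2 and SCF replicate 1 over the others, next to 71.8% in members. In the sets of replicates 2 over 1 and of SCF over PBS it was 58.2% and 54.8%.

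**Figure D3:**
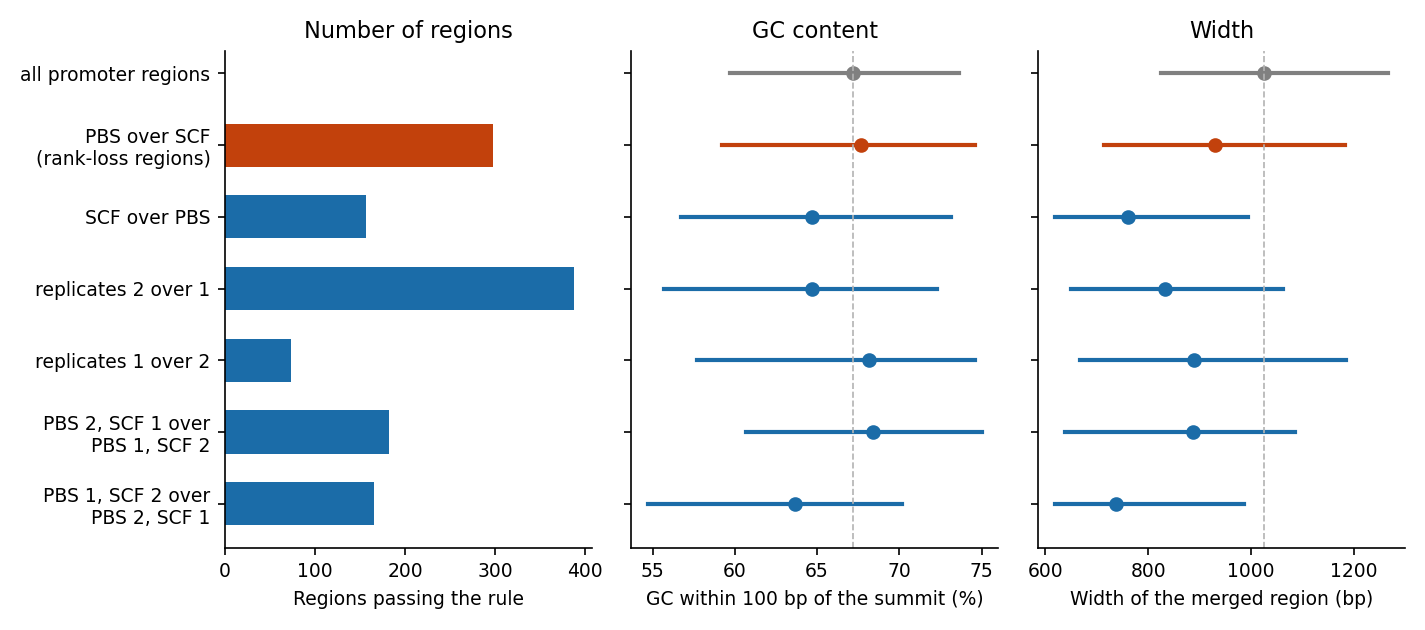
Left, number of promoter regions passing the 10-point rule for each of the 6 ordered ways of pairing the 4 libraries (bars from 0). Middle and right, median (points) and quartiles (lines) of GC content within 100 bp of the summit and of region width, with the median of all 13250 promoter regions as a dashed line. The members, in orange, number 298 against 388 for replicates 2 over 1, lie at 67.7% GC near the dashed line, and at 929.5 bp are nearer to the dashed line in width than the 5 other sets.

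Short sequence words were compared as shares with 95% Wilson intervals, without a test. For 3 words the members' interval lay below that of all promoter regions. The SP/KLF word was present in 47.3% of members (41.7 to 53.0%) and 56.6% of all promoter regions, the NFY word in 17.4% (13.6 to 22.2%) and 23.4%, and the E-box in 2.68% (1.37 to 5.21%) and 6.30%. In the other 5 sets the SP/KLF share was 36.97 to 58.9%, the NFY share 15.1 to 17.6% and the E-box share 3.03 to 9.59%. A low NFY share was therefore common to all 6 sets. With only peaks whose −log10 q reached 5, 0 of the 13 words had intervals that lay apart.

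For the remaining words the members' interval overlapped that of all promoter regions. ETS was in 17.8% of members and 18.7% of all, EGR in 7.38% and 6.85%, GATA in 6.04% and 7.25%, YY1 in 4.03% and 4.15%, and the TATA box in 4.03% and 2.51%. AP-1, the word of the FOS and JUN proteins, was in 4.36% of members (2.57 to 7.32%) and 3.15% of all, whereas it was in 14.6% (9.96 to 21.0%) of the regions with SCF over PBS. In the 4 sets that mix treatments the AP-1 share was 1.37 to 6.06%. The GATA word was in 14.0% (9.44 to 20.3%) of the regions with SCF over PBS, and also in 13.3% of those with PBS replicate 1 and SCF replicate 2 over the others and 11.1% of those with replicates 2 over 1. CRE, SRE, NRF1 and ZBTB33 words were each in at most 1.01% of members. CRE was in 0.671% of members (0.184 to 2.41%) and 1.75% of all promoter regions. In the same order SRE was in 0.671% and 0.551%, NRF1 in 1.01% and 1.23%, and ZBTB33 in 0.671% and 0.415%.

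**Figure D4:**
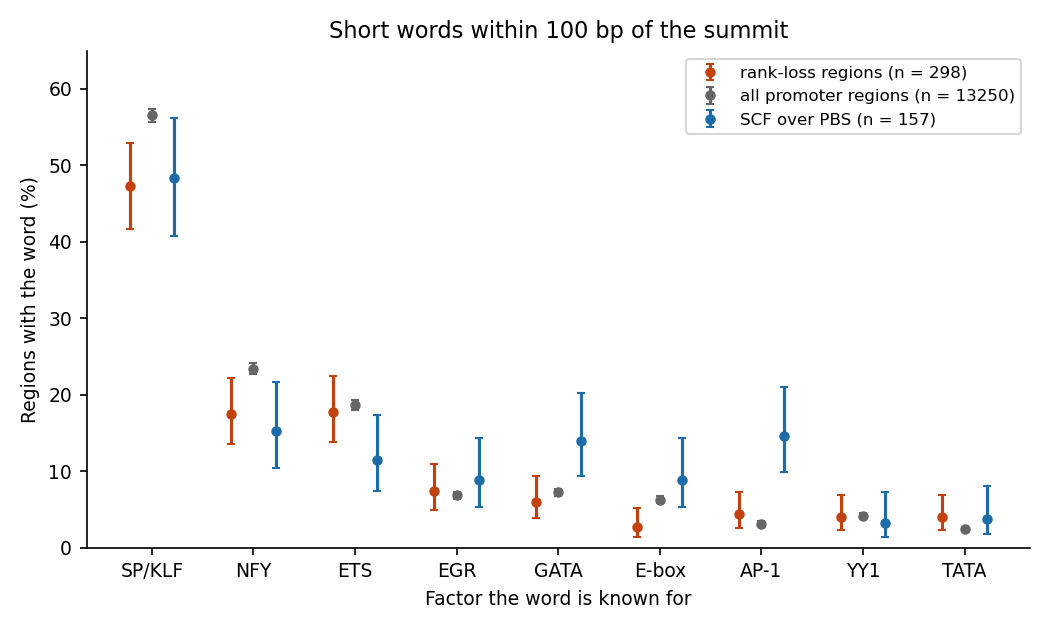
Share of regions with each word within 100 bp of the summit (y axis, percent), for the rank-loss regions, all promoter regions and the regions with SCF over PBS, with 95% Wilson intervals as bars. Orange and grey intervals lie apart for SP/KLF, NFY and the E-box, and the blue interval lies above both for AP-1.

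Whether a rank loss carries over was read by selecting promoter regions in 1 PBS and 1 SCF library and reading the other 2. Every promoter region had to carry a peak in every list, so the libraries read out also took part in the choice. Regions without a peak in a library read out could not enter, so the loss of a whole peak there could not be seen. Regions at least 10 points lower in SCF replicate 1 than in PBS replicate 1 numbered 2285, with a median change of −15.2 points in that pair. From PBS replicate 2 to SCF replicate 2 the same regions changed by a median of −2.62 points, against −0.804 over all promoter regions. Selection on replicates 2 gave 2213 regions, with −2.25 points in replicates 1 against −0.476. Among regions with a peak in every list, most of the median rank loss was thus absent from the second pair.

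With unlike numbers the outcome depended on the libraries. The 1598 regions chosen from PBS replicate 1 to SCF replicate 2 changed by −4.79 points in the other pair, against −2.03, and the 2977 chosen from PBS replicate 2 to SCF replicate 1 by 0.735 points, against 0.576. Selections within a treatment shifted in both directions. Regions at least 10 points lower in PBS replicate 1 than in PBS replicate 2 were read from SCF replicate 2 to SCF replicate 1. They changed by −3.04 points, against −1.22 over all promoter regions. The same choice with SCF, read with PBS, gave −2.97 against −1.43. Regions chosen for a lower replicate 2 went against the choice. They changed from replicate 1 to replicate 2 by 2.43 points against 1.22 (chosen with PBS) and 2.63 against 1.43 (chosen with SCF). Averaged over the 4 choices of PBS over SCF, the extra change was −1.55 ± 1.22 points (SD, n = 4 choices that share libraries). For choices of SCF over PBS, read from SCF to PBS, it was 0.0248 points with replicates 1 and 0.192 with replicates 2. It was −2.38 for SCF replicate 1 over PBS replicate 2 and 1.07 for SCF replicate 2 over PBS replicate 1.

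The share of regions that again fell by at least 10 points was raised in every choice by treatment. It was 23.8%, 24.5%, 32.4% and 17.4% of the chosen regions, against 16.7%, 17.2%, 22.5% and 12.1% of all promoter regions. It was also raised in the opposite direction, where regions chosen for a higher SCF rank were again higher by 10 points in 12.9 to 28.9%, against 7.46 to 16.7%. Regions chosen by a difference between replicates within a treatment, and read against the direction of the choice in the other treatment, also differed by 10 points more often, in 26.8%, 14.1%, 23.9% and 10.04%, against 19.3%, 10.6%, 18.0% and 7.24%. A raised share was thus not particular to a loss that carries over.

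**Figure D5:**
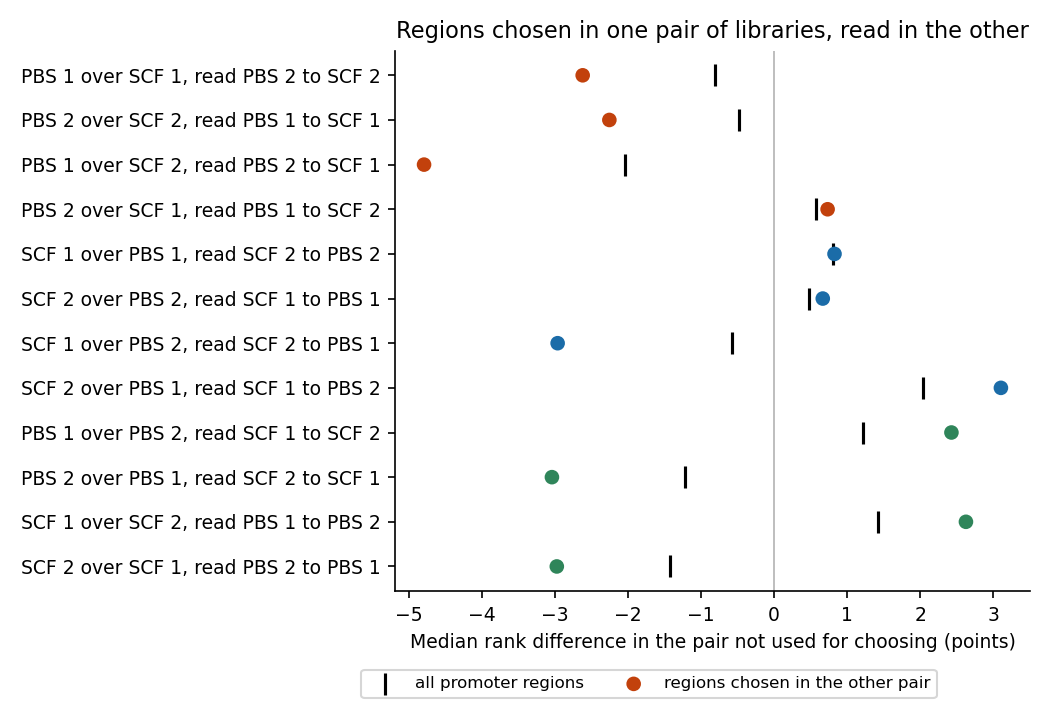
Median rank difference in the second pair of libraries (x axis, points), for chosen regions (dots) and all promoter regions (ticks). Regions were chosen by a difference of at least 10 points in the first pair, and all had a peak in every list. Orange dots are choices by PBS over SCF, blue by SCF over PBS and green within a treatment, and the largest shift of a dot from its tick is 2.75 points to the left.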

How the data were processed

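The deposited narrowPeak lists of 4 sgControl ATAC-seq libraries were analysed, 1 list per library, called without pooling. The submitters' processing notes name bcl2fastq, Bowtie2 and SAMtools and the study's methods the ENCODE pipeline with hg38, but the series description and each file header name hg19. All 126214 peaks on the 24 chromosomes ended inside GRCh37, and the coordinates were read as hg19. The peak caller's settings are not given in the sources used here. The authors' deposited values per peak are a whole-number score (not used in a comparison), a fold enrichment, a −log10 p-value and a −log10 q-value. The q-value threshold was 0.05. The fold enrichment was read as summit pileup plus 1 over local background plus 1, the form under which whole-number pileups were recovered.

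Merging, ranks and calls followed the rule given above, with GENCODE release 44 lifted to GRCh37 and all transcript types. The summit was that of the highest-ranked peak. Whole-number pileups were recovered as those giving both the fold enrichment and the −log10 p under a Poisson distribution. This succeeded to a relative error of 0.0001 in 100% of peaks with a −log10 p under 300. The lowest local background of a library, divided by the width of its narrowest peak, gave relative depth. Read depth itself is unknown. Shares have 95% Wilson intervals, medians binomial order-statistic intervals, and pileups exact Poisson intervals, all for counting error only. No test was run on values that chose the members. The members and gene lists were chosen with earlier results of these data known. Named genes are the 25 members of largest gap nearest a protein-coding gene, up to 3 members per gene list by gap, and 3 regions on each side of the threshold. Alternatives covered the gap, the ranking value, thresholds, the start sites, the overlap, the replicate numbers and each library left out. Scripts were tested on simulated data. The sequence of 1 further member of large gap and the name of 1 marker gene are not reported here. Python 3.11.15, pandas 2.3.3, scipy 1.17.1, statsmodels 0.14.6 and pysam 0.24.0 were used.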

Additional observations from a re-analysis of the deposited data

How the results depend on the processing

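The count of 298 members changed with the rule, as follows from its construction. It was 961, 96 and 41 with a gap of 5, 15 and 20 points, 524 with a −log10 q of at least 5, 183 with ranks by −log10 p, 107 with ranks by recovered pileup, and 767 to 1480 when a library was left out. The other 7 alternatives kept it between 222 and 386. The gap taken within each replicate number (replicate block) gave 543 regions. The replicate differences of PBS and SCF libraries correlated at 0.0229 over 13250 promoter regions, so libraries of the same number in the labels shared little shift per region. The numbers in the peaks' names differ from those labels and would pair the libraries otherwise. The correlation cannot show which libraries were prepared together. The difference in GC content was −1.24 points with a gap of 15 and −1.49 with ranks by −log10 p, and inside its interval otherwise. The difference in width kept its sign under all alternatives, at −27, −189.5 and −167 bp with gaps of 5, 15 and 20, −27.5 with the q limit, −211 and −227 with ranks by pileup and by −log10 p, and −24 with ranks among promoter regions.

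Of the listed genes with a promoter region, 1.40% were at members, against 2.33% of all protein-coding genes. This was 7.24%, 0.311% and 0.0778% with gaps of 5, 15 and 20 (all genes 7.83%, 0.682% and 0.291%), 4.02% with the q limit (4.43%), 0.312% and 0.545% with ranks by pileup and by −log10 p (0.665% and 1.30%), 3.66% with ranks among promoter regions (3.29%), 2.57% with the replicate block (4.21%), and 4.12 to 10.9% with a library left out (5.98 to 11.3%). The number of words whose intervals lay apart was 3. It was 1 with gaps of 15 or 20, with equal peak numbers or with gene starts only, 0 with the q limit, and 1 to 3 with a library left out. The held-out change, among regions with a peak in every list, averaged −1.55 points and ran from −1.06 to −1.86 under its 6 alternatives. Leaving out a library was not possible there, since all 4 are needed. The gap at GPS2 turned to −1.97 with ranks by pileup, and the other 24 named regions kept a gap above 0 in every alternative that called them. With all 4 libraries and the 10-point rule, 23 of the 25 gaps moved by over 1.5 times under at least 1 alternative. Of the 25, 14 were still members with the q limit and 15 with gene starts only, which were all that still had an eligible region there. With ranks among promoter regions all 25 had a region and 18 were still members. With ranks by pileup 21 of the 25 were, and with ranks by −log10 p 24. The causes were not tested. With 2 libraries per treatment and median pileups of 21 fragments in SCF libraries, depth limits what a single region can show.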

Other observations

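Some values outside the comparisons were noticed after the data were seen. On chromosome X, 17 of 367 promoter regions were members (4.63%, 95% Wilson interval 2.91 to 7.29%), against 2.25% over all chromosomes. The share of chromosome X among the regions was 5.70% in members, 2.77% in all promoter regions, and 1.21 to 5.49% in the sets from the other 5 ways of pairing the libraries. X-linked members included the region at ZC3H12B and that at the pseudogene CHMP1B2P, which ranked 79.7 and 73.5 with PBS and 24.5 and 42.9 with SCF.

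Regions without a protein-coding start within 1 kb made up 16.4% of members (12.7 to 21.1%) and 10.6% of all promoter regions, and 9.59 to 22.4% of the sets from the other pairings. Non-coding starts also held large gaps, 27.1 points at the pseudogene IGHVIII-38-1 and 26.4 at the lncRNA gene ENSG00000258131.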
